A study of Drosophila melanogaster with 2 samples.

Results

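The strongest binding regions of org-1 in the fly embryo were taken as the peaks of the authors' optimal list, in genome build dm6, whose deposited signal value was 500 or more. They numbered 320 of 4434 optimal peaks (7.22%) and held 24.7% of the summed signal of that list. The optimal list is the set of regions kept by the authors at a threshold on the irreproducible discovery rate, which measures how well 2 replicates rank the same regions. Chromatin immunoprecipitation and sequencing had been done on whole Drosophila melanogaster embryos of mixed sex, collected from 2 to 24 hours, from a transgenic line that stably expressed org-1 fused at its C-terminal end to GFP. Both libraries, biological replicates 1 and 2 of 1 group, carried the same transgene. The labels describe precipitation with an antibody to GFP, although the antibody field names org-1. The sources used here name neither the promoter that drives the transgene nor the state of the native org-1 gene. Whole embryos pool every tissue and most of embryonic development, so a peak cannot be placed in a cell type. The members were chosen by the signal of the pooled replicates. Their signal values therefore are a description, and the same holds for the replicate signals that feed it.

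Among T-box transcription factors, org-1 is the fly relative of vertebrate Tbx1. T-box proteins bind DNA through the T-domain, whose preferred core is the word AGGTGTG, and org-1 is known for its part in specifying founder cells of some somatic muscles, of the visceral mesoderm and of the alary muscles. A ChIP peak marks where the tagged protein was crosslinked, directly or through other proteins. It does not say whether the nearest gene is regulated.

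Sequences of 6 of the 7 strongest regions are printed because they show the composition common to the members. Each runs from 50 bp before to 50 bp after the summit, read 5′ to 3′ from the RefSeq release 6 genome, which is dm6. Capitals mark TTAAAA and ATTTAA, searched on both strands (TTTTAA and TTAAAT), which may overlap each other.
CG32772 (chrX:4910314-4910414, plus strand): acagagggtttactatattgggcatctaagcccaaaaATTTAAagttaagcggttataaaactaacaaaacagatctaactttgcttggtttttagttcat
cbt (chr2L:481015-481115, plus strand): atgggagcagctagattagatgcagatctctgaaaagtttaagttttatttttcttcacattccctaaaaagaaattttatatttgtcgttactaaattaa
CG11050 (chr2L:6612660-6612760, plus strand): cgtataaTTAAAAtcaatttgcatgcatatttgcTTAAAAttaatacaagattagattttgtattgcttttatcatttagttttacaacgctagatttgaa
Ugalt (chrX:2703841-2703941, plus strand): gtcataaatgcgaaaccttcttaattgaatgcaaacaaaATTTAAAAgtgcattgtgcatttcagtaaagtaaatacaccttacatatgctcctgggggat
CG4004 (chrX:12751279-12751379, plus strand): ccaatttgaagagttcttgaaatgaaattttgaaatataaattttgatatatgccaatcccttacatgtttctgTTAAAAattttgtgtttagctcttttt
CG14100 (chr3L:19590569-19590669, plus strand): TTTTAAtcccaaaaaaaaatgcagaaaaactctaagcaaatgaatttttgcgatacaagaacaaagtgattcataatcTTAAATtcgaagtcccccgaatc

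The cbt window held neither word although its GC content was 27.7%, and the CG11050 window, with 22.8% GC, held TTAAAA at 2 places. TTAAAA was present in 129 of the 320 member windows (40.3%), 28.1% of the 4114 weaker optimal windows, 15.3% of the 25566 pooled candidate windows outside the optimal list and 12.5% of the 640 windows centred 400 bp to either side of the member summits. ATTTAA was present in 37.2%, 24.8%, 14.5% and 10.9% of the same sets. These were the words of 6 bases with the widest gap between members and their flanks, and the next ones were also made only of A and T. AAATAT was found in 37.2% of members, ATTTTA in 33.1%, TAAATA in 33.4%, ATTAAA in 30.9%, TATTAA in 26.6%, AAATAA in 36.3%, ATATTA in 23.8% and TTTAAA in 25.6%. Such words are frequent wherever GC content is low, and their shares were not adjusted for it.

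The T-box core was rare at the strongest summits. AGGTGTG, searched on both strands (CACACCT), lay within 50 bp of the summit in 3 of 320 members (0.938%, exact 95% interval 0.194 to 2.72%), in 0.559% of weaker optimal peaks, in 1.01% of the other candidates and in 0.781% of the member flanks. All 3 windows are printed below, with the core in capitals, together with the window at the ribosomal protein gene RpS25, whose capitals mark TATCGATA, the palindromic word bound by the DREF protein.
Reph (chr2L:3804749-3804849, plus strand): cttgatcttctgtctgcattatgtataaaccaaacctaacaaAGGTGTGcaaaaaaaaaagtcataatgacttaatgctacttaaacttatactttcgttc
CG1907 (chr3R:29618851-29618951, plus strand): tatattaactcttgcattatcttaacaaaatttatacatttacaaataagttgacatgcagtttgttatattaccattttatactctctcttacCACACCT
CG10413 (chr2L:18605073-18605173, plus strand): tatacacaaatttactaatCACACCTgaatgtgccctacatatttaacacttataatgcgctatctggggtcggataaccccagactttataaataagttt
RpS25 (chr3R:11216300-11216400, plus strand): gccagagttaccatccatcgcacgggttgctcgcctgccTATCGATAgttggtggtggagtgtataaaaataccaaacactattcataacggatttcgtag

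In the Reph window the middle of the core was 5 bp before the summit, and in the CG10413 window 28 bp before it. In the CG1907 window the core lay at the far end, its middle 47 bp after the summit. Replicate 1 gave Reph 364 and replicate 2 gave it 484, CG1907 had 495 and 200, and CG10413 had 356 and 255, so that 1 of the 3 was the stronger in replicate 2. With windows reaching 100 bp to either side, the share of members holding the core was 1.56%. TATCGATA was found in 2 members (0.625%), against 0.875% of the weaker optimal peaks.

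A second set of windows is shown because the replicates differed widely at them. No other member summit lay within 1000 bp. PIG-F, which codes for an enzyme of glycosylphosphatidylinositol anchor synthesis, and E(spl)m3-HLH, a Notch target of the Enhancer of split complex, had the highest ratios of replicate 1 to replicate 2. The regions at tara and at cno, which codes for the junction protein Canoe, were among those with the lowest. Capitals mark TTAAAA and ATTTAA on both strands.
PIG-F (chr3L:19612284-19612384, plus strand): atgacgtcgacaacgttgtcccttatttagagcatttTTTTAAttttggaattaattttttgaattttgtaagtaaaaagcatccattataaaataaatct
E(spl)m3-HLH (chr3R:26021333-26021433, plus strand): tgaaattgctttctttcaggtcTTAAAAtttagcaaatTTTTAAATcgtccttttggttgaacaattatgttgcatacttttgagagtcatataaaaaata
tara (chr3R:16222447-16222547, plus strand): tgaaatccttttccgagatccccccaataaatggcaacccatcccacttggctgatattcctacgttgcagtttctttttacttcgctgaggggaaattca
cno (chr3R:5215471-5215571, plus strand): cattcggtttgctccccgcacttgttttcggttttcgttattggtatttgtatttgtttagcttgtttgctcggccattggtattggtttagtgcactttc

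Replicate 1 gave the PIG-F region 642 and replicate 2 gave it 159, and the E(spl)m3-HLH region 494 and 98.4. The tara region had 301 and 768, and the cno region 263 and 644. The first 2 windows held 24.8% and 25.7% GC and carried the words in capitals, while the windows at tara and cno held 44.6% and 41.6% GC and carried neither.

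The AT content at the member summits was a local feature. The median GC content within 50 bp of the summit was 30.7% (quartiles 25.7 and 35.6%, range 13.9 to 60.4%), that of the flanks was 44.1%, and the chromosome arms as a whole held 42.2%. The summit lay below its own flanks in 277 of 320 members (86.6%), against 76.8% of all optimal peaks and 46.0% of the candidates outside the optimal list. Median GC rose step by step as the signal fell, to 31.7% at a signal of 300 to 500, 32.7% at 200 to 300, 33.7% at 150 to 200, 35.6% below 150 and 42.6% in the candidates outside the list. Within the members the relation of signal to GC was slight (Spearman rho -0.12 across 320 peaks, which share their libraries and are not replicates). In the 320 strongest candidates of replicate 1 the median GC was 27.7%, and in those of replicate 2 it was 33.2%. Only 9 members reached 50% GC, and the highest value, 60.4%, was found at the promoter of fkh and at the peak nearest to Cib2, which lies in a coding exon of otp.

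**Figure D1:**
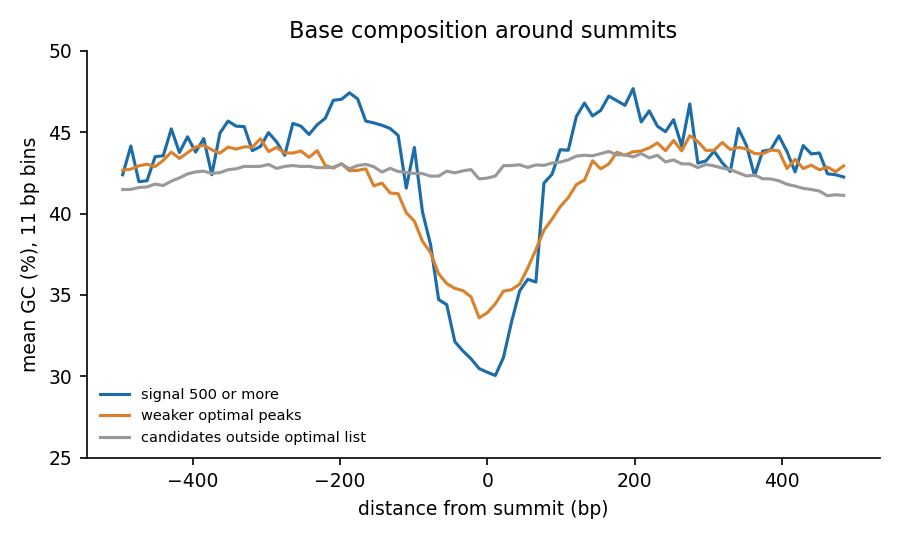
Mean GC content in bins of 11 bp around the summit, by distance from the summit in bp, for the 320 members, the weaker optimal peaks and the candidates outside the optimal list. The members fall to 30.1% at 11 bp from the summit and the weaker optimal peaks to 33.6%, while the other candidates show no dip at the summit.

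The named words differed in both directions. TATAAA was found in 75 members (23.4%) against 10% of their flanks, and TAATTA, a core bound by homeodomain proteins, in 40 (12.5%) against 4.38%. The GATA word AGATAA was found in 26 (8.13%) against 3.44%, and the forkhead word TAAACA in 51 (15.9%) against 11.6%. Among the weaker optimal peaks TATAAA was in 19.8%, TAATTA in 8.68%, AGATAA in 8.36% and TAAACA in 16.6%. The shares of AGATAA and TAAACA were thus slightly lower in the members than in these peaks. In the other direction, the GAGA element GAGAGAG and the CA repeat CACACACA were found in 1 member each (0.313%), against 5% and 5.47% of the flanks. The weaker optimal peaks held them in 1.46% and 1.90%. With windows reaching 100 bp to either side they were in 4.69% and 2.5% of members, against 9.69% and 10.6% of flanks. The E-box CAGCTG was found in 4 members (1.25%) against 4.38% of the flanks, but with windows reaching 100 bp to either side it was in 8.44% against 8.59%. The other words searched are given as the share of members against the share of flanks. The ATF and CREB word TGACGTCA was in 2 members (0.625%, l(2)gd1 and Vps33B) and in no flank, its shorter form TGACGT in 3.13% against 1.72%, and the AP-1 word TGACTCA in 1.56% against 0.781%. In the wider windows TGACGT was in 4.38% of members against 6.25% of flanks and TGACTCA in 1.56% of both. Among the E-boxes, CACGTG was in 0.938% against 0.781%, CAGGTG in 2.19% against 2.97% and CATATG in 5.63% against 4.22%. The promoter words TCAGTT (initiator) and TCACACT (motif 1) were in 6.88% against 5.94% and in 0.938% against 1.09%. The early embryonic word CAGGTAG of Zelda was in 0.313% against 0.625%, and CGATA, bound by BEAF, in 11.6% against 10%. GTTCG was in 9.38% against 13.0%, the FoxO word GTAAACAA in 1.88% against 1.41% and the MEF2 word CTATTTAT in 1.56% against 1.41%. The C/EBP word TTGCGCAA was in 0.313% against 0.156%, the heat shock word GAANNTTC in 1.88% against 1.56% and the STAT word TTCNNNGAA in 3.13% against 2.19%. Runs of A (AAAAAAAA) were in 5.63% against 6.88% and TATATATA in 0.938% against 0.625%, and the Smad word GTCTAGAC was in 0 of 320 members (exact 95% upper bound 1.15%). All words were searched on both strands, and none of the differences was adjusted for GC content. With the wider windows the difference turned for 4 of the 28 words, namely TGACGT, as given above, then CACGTG (1.56% against 2.34%), TCAGTT (11.6% against 13.0%) and TTGCGCAA (0.313% against 0.625%). It went to 0 for TGACTCA and for the motif 1 word.

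Most of the strongest summits lay at gene starts. Of the 320, 192 (60.0%, 54.4 to 65.4% as the exact 95% interval) had the start of a coding transcript at most 500 bp away, 96 (30%, 25 to 35.3%) were in introns, 30 (9.38%, 6.41 to 13.1%) were intergenic, 1 was in a 5′ UTR of Raf and 1 in a coding exon of otp, with the start of Cib2 nearest. In all 4434 optimal peaks the promoter share was 37.6%, the intron share 43.1% and the intergenic share 17.9%. The promoter share fell from the members to 43.1%, 39.7%, 36.3% and 32.1% in the 4 weaker bands of signal and to 20.1% in the other candidates. The intervals cover the counting of peaks only. In the 320 strongest candidates of replicate 2 the promoter share was 50.9%, and in those of replicate 1 it was 60.9%.

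**Figure D2:**
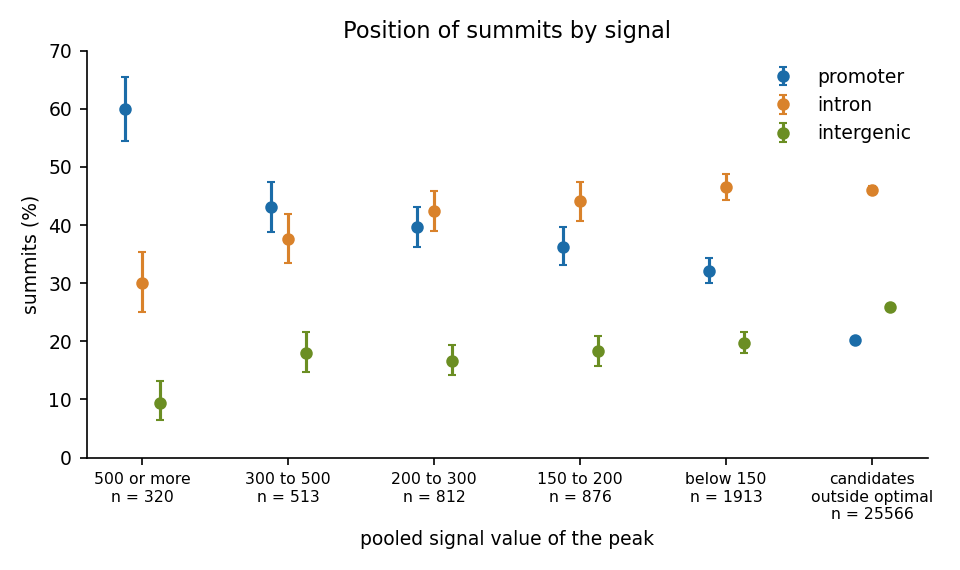
Percent of summits in promoters, introns and intergenic sequence, by the pooled signal value of the peak, with exact 95% binomial intervals that cover the counting of peaks. The promoter share is 60.0% in the strongest band and 32.1% in the weakest optimal band, and the promoter percentage is above the intron percentage at a signal of 300 or more, with overlapping intervals from 300 to 500.

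Promoter members lay upstream of the start more than on it. The summit was upstream in 167 of 192 (87.0%), against 79.4% of all optimal promoter peaks, at a median position of -167.5 bp (quartiles -252 and -107.5) against -129.5 bp. The span from 50 to 300 bp upstream held 141 of the 192, a count not made for all optimal promoter peaks. Starts on both strands lay within 500 bp of 47 promoter members (24.5%), close to the 27.2% of all optimal promoter peaks. A start of a non-coding gene lay within 500 bp of 24 members (7.5%, against 6.04% of all optimal peaks).

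**Figure D3:**
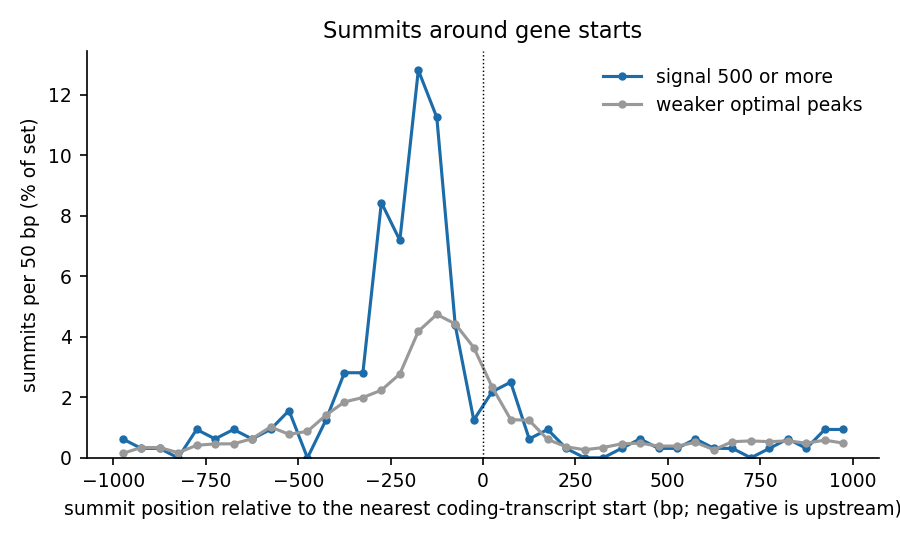
Percent of the set with a summit in each 50 bp bin around the nearest coding-transcript start (negative positions are upstream), for the members and for the weaker optimal peaks. The members reach 12.8% in the bin centred at -175 bp, where the weaker peaks hold 4.18%.

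The members in introns lay closer to a start than all optimal intron peaks. A first intron of any transcript of a host gene held 76 of the 96. In 81 the gene with the nearest start was the one whose intron held the summit. Neither count was made for all optimal intron peaks. The median distance of the 96 to the nearest start was 1712 bp, against 2910 bp for all optimal intron peaks, and 7 of the 96 (7.29%, against 14.7%) lay beyond 10000 bp. The other 15 sat in the intron of one gene with a start of another nearer by. Examples were the cbt summit in an intron of ush, the CG42507 summit in an intron of Trl, which codes for the GAGA factor, and the CG13482 summit in an intron of fz, 25275 bp from the CG13482 start. Of the 30 intergenic members, 22 were upstream of the nearest start, a count not made for all optimal intergenic peaks. The median distance of all 30 was 4163.5 bp, against 4545.5 bp for all optimal intergenic peaks, and the farthest was 31878 bp from CG43245.

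The strongest members came from several classes of gene. The highest signal, 2560, was in an intron of CG32772, 1262 bp downstream of its nearest start, with 1632 in replicate 1 and 927 in replicate 2. The next was 1377 bp upstream of cbt (cabut, a zinc finger transcription factor of the TIEG family), with 1360 and 1167. An intronic region of CG11050 had 1316 and 1135. The promoter region of px (plexus, which acts in wing vein patterning) had 995 and 1359, and that of Ugalt, the Golgi UDP-galactose transporter, had 1201 and 1152. These were the 5 members with a signal above 2000.

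The signal fell off quickly below them. It was above 1000 in 57 members, the median was 679 and the quartiles were 579 and 882. The rest of the 30 strongest ran from CG4004 at 1942 to CG18549 at 1188. They included Chro (1806), which codes for the polytene interband protein Chromator, Lk6 (1790), a kinase of the translation factor eIF4E, and Atf3 (1504), a bZIP transcription factor. They also included HmgZ (1448), an HMG-box chromatin protein, Tlk (1383), the tousled-like kinase, and ph-p (1280), a subunit of Polycomb repressive complex 1. Among the enzymes were PNPase (1547), the mitochondrial polynucleotide phosphorylase, amon (1308), a prohormone convertase, Art3 (1288), an arginine methyltransferase, CenG1A (1282), an Arf GTPase-activating protein, and Pal1 (1219), a peptide-amidating lyase. The remaining ones were CG14100, hll, CG13323, CG1888, CG31145, CG42507, CG9663, Tina-1, SLC5A11, larp, CG9147 and MFS10.

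The threshold did not fall in a gap. The members just inside it were slbo (504), CG6966 (503), CG13482 (502), tmod (502) and CG17726 (502). The optimal peaks just outside it were nearest to CG43389 (499.7), CG10527 (499), stck (498), shn (497) and CG9300 (497).

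The 320 summits were nearest to 290 genes, 2.08% of the 13945 protein-coding genes, while the optimal list as a whole was nearest to 2655 (19%). Of the 290 genes, 265 had 1 member, 21 had 2, 3 had 3 and 1 had 4. The gene with 4 was Raf, the MAP kinase kinase kinase of receptor tyrosine kinase signalling. The nearest genes were long: their median length was 6751.5 bp, against 5205 bp for genes nearest to any optimal summit and 2166 bp for all protein-coding genes, and they had a mean of 2.32 annotated starts against 1.41. A longer gene with more starts has more room to be the nearest, and gene counts below were not adjusted for it. The gene lists below were chosen with earlier results of these data known, so their counts are a description. Genes named only by a CG number were 91 of the 290 (31.4%), against 43.7% of all protein-coding genes.

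The list of stress and immediate early regulators and the list of chromatin architecture held several of the highest signals. Stress and immediate early regulators had a member at 5 of 55 genes (9.09%, against the 2.08% of all genes), and 36 of the 55 (65.5%, against 19%) had an optimal summit. Their 7 members had a median signal of 1504, and besides cbt, Lk6, Atf3 and Tina-1 they included NFAT (1147), the calcium-regulated factor, with 571 in replicate 1 and 574 in replicate 2. Genes of chromatin architecture had a member at 10 of 186 (5.38%, against 2.08% of all genes), and 118 of the 186 are histone genes, without which the share was 14.7% of 68. Polycomb and Trithorax group genes were both among them, with ph-p, Psc (1175), osa (1075, of the Brahma remodelling complex) and trx (778, a histone H3 methyltransferase). The Psc summit was intergenic, at -4227 bp from the Psc start and -146 bp from the start of the non-coding gene lncRNA:CR44339. The osa summit lay in an intron of osa, 13934 bp from the nearest start. Cp190 (681, an insulator protein), gro (645, the Groucho corepressor) and lola (537) were also in this list.

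Forkhead and GATA factor genes had a member at 4 of 22 (18.2%, against 2.08% of all genes). These were fkh (719), slp2 (656), CHES-1-like (630, 608 and 562) and ush (551), the cofactor of GATA factors. The fkh region had 255 in replicate 1 and 458 in replicate 2. The ecdysone response and nuclear receptor list had 3 of 34 (8.82%), namely E23 (920), Hr4 (671 and 618) and ken (506).

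The signalling lists held between 1 and 5 genes each, where the 2.08% of all genes gives 0.541 to 0.894 genes per list. In the EGFR and FGF pathways 5 of 34 genes (14.7%) had 8 members, 4 of them at Raf. The genes were the ligand spi (Spitz, 717), S (Star, 641), which acts in ligand trafficking, the secreted inhibitor aos (Argos, 617), the adaptor Shc (623) and Raf (1063, 804, 775 and 611). The spi region had 441 in replicate 1 and 280 in replicate 2, and the aos region had 243 and 375, so the replicates ranked these 2 in opposite order. The Notch list had 3 of 33 genes (9.09%), with gro, E(spl)m3-HLH (598) and numb (548), the inhibitor of Notch. The Hippo, JAK-STAT and insulin list had 3 of 42 (7.14%), with InR (686), REPTOR (622) and ken. The BMP and activin list had 1 of 26, Mad (573), the Smad transcription factor, and the Wnt and Hedgehog list 1 of 43, sgg (945), the fly GSK3 kinase. Both of these counts of 1 are near the background.

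Lists close to the known roles of org-1 held from 0 to 3 genes with a member. Mesoderm and muscle regulators had a member at 1 of 57 genes (1.75%, against 2.08% of all genes), zfh2 (574), and 27 of the 57 (47.4%, against 19%) had an optimal summit. Genes of muscle structure and myoblast fusion had a member at 3 of 60 (5%). These were Msp300 (574), the muscle nesprin, kirre (509), the adhesion protein of founder cells, and tmod (502), the actin-capping tropomodulin. All 3 lay below the lower quartile of the members' signal. The kirre region had 210 in replicate 1 and 297 in replicate 2, and the Msp300 region had 410 and 170. The integrin, laminin and matrix list had 1 of 29 (3.45%), Pax (780), which codes for paxillin. No T-box gene of 8 and no Hox gene of 8 had a member, where the 2.08% of all genes gives 0.166 genes for a list of 8, so these counts are near the background. An optimal summit was nearest to 5 of the 8 T-box genes (62.5%) and 3 of the 8 Hox genes (37.5%), against 19% of all genes.

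Patterning and neural lists also held members. The segmentation and patterning list had 2 of 62 (3.23%), slp2 and ush, near the 1.29 genes that the 2.08% of all genes gives. The neural list had 5 of 70 (7.14%), with chinmo (1109, 741 and 542), sbb (1064 and 692), elav (781), numb and lola. The RNA-binding and splicing list had 5 of 51 (9.80%), and these were elav, msi (664), mub (653), brat (582) and yps (545). The same 2.08% gives 1.46 genes for the neural list and 1.06 for the RNA-binding list. The msi window held 13.9% GC, the lowest of all members.

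Among the housekeeping lists, ribosomal protein genes held the most members. An optimal summit was nearest to 61 of the 93 cytoplasmic ribosomal protein genes (65.6%, against 19% of all genes). A member was nearest to 6 of the 93 (6.45%, against 2.08% of all genes). These were RpL7 (771), RpS27 (768), RpL14 (638), RpL30 (543), RpL23A (522) and RpS25 (513). All 6 were promoter peaks within 74 bp of the start, closer than the median promoter member, and 5 of the 6 were higher in replicate 2, against 89 of all 320 members. Their GC content ran from 44.6 to 56.4%, above the upper quartile of the members. Mitochondrial ribosomal protein genes had 2 of 73 (2.74%), mRpL41 (1063) and mRpL23 (703), with 21.8% and 20.8% GC and both higher in replicate 1. Translation factors had 3 of 61 (4.92%), with eEF1gamma (952), eIF6 (878) and eIF4EHP (679). The eEF1gamma summit was intergenic, at -5710 bp from the eEF1gamma start and -100 bp from the start of the non-coding gene lncRNA:CR31044. Chaperones had 2 of 39 (5.13%), Hsp27 (699) and Hsp83 (613). The cell cycle list had 1 of 54 (1.85%), CycB (918), from an intergenic summit 3330 bp downstream of its start. The cytoskeleton list had 2 of 85 (2.35%), Pax and Act5C (534). For the mitochondrial ribosomal, cell cycle and cytoskeleton lists the 2.08% of all genes gives 1.52, 1.12 and 1.77 genes, near these counts. None of 33 aminoacyl-tRNA synthetase genes, 90 oxidative phosphorylation genes, 48 proteasome genes, 141 cuticle protein genes or 119 odorant and gustatory receptor genes was nearest to a member. The 2.08% of all genes gives 0.686, 1.87, 0.998, 2.93 and 2.47 genes for lists of these sizes, each under 3 genes.

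**Figure D4:**
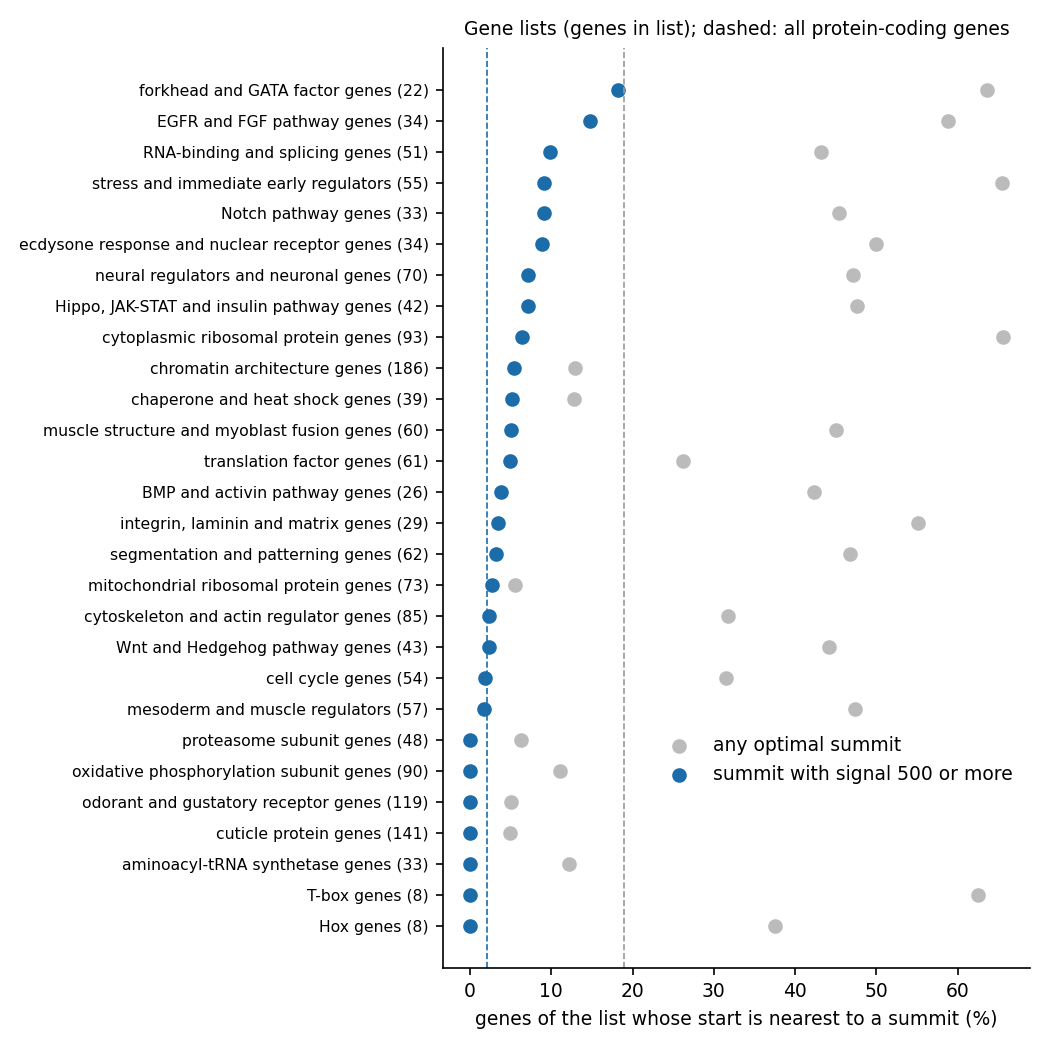
Percent of the genes of each list whose start is nearest to a member (dark points) or to any optimal summit (grey points), with the number of genes in the list in parentheses. Dashed lines mark all protein-coding genes, 2.08% for members and 19% for optimal summits, and no test was made.

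Leaving aside the list of CG-number genes, 230 of the 290 genes were in none of these lists. A further 4 lists were written after the member genes themselves had been seen, so their counts too are no evidence of their own. Glycolytic enzymes had a member at 4 of 16 genes, Gapdh2 (1117), Eno (757), Hex-A (680 and 560) and Ldh (581). All 5 of these summits were AT-rich (21.8 to 24.8% GC) and higher in replicate 1. The list of histone-modifying enzymes and related proteins had 8 of 36, Art3, wde (942), trx, Kdm2 (603), Hmt4-20 (548), gpp (534), upSET (528) and JIL-1 (525). Regulators of Ras, Rap and Ral had 6 of 19, with Raf, RasGAP1 (807), RapGAP1 (801), Shc, Rgl (581) and Dok (537). Cyclic nucleotide signalling had 4 of 23, with the cGMP-dependent kinase for (916 and 506), the cAMP phosphodiesterase dnc (793 and 691), the adenylyl cyclase Ac13E (538) and Pde6 (534). In the order given, the 2.08% of all genes gives 0.333, 0.749, 0.395 and 0.478 genes for these lists. As the lists were written from the member genes, counts above these values carry no weight.

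Each of the 320 members had an overlapping candidate region in both replicates. The signal in replicate 1 ran from 118 to 1632 with a median of 408, and in replicate 2 from 24.9 to 1359 with a median of 297. The sum of the replicate signals was within 1% of the pooled signal in 252 members, so a threshold on the pooled value selects on the sum, and a low value in one replicate then needs a high value in the other. The correlation of the replicate signals across the members (Spearman rho 0.286, n = 320) is bounded by that selection and is given as a description. The replicate 1 signal was the higher in 231 members and the replicate 2 signal in 89. The median ratio was 1.33, against 1.35 across the 4264 optimal peaks with a candidate in each replicate. The depth of each library is unknown, so the overall level of the ratio has no reading.

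**Figure D5:**
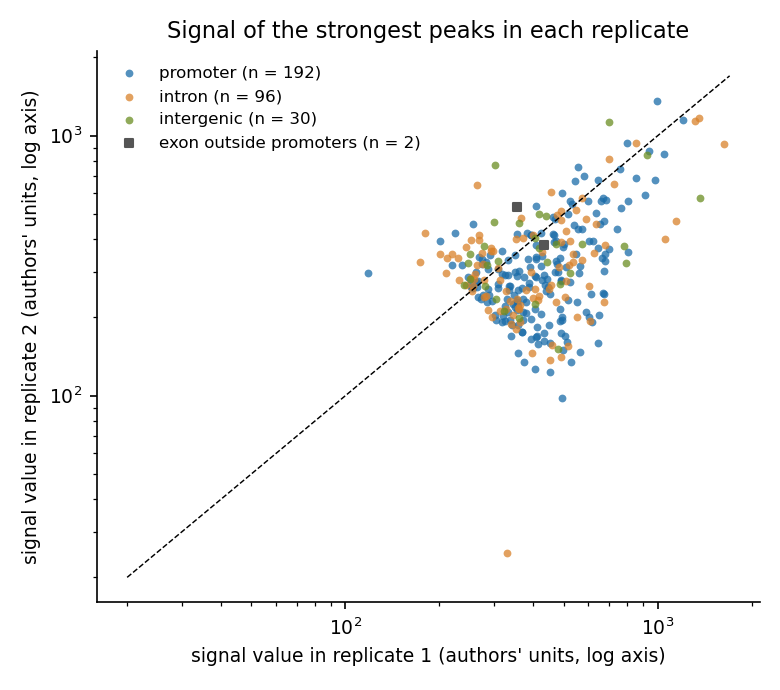
Signal value of the members in replicate 2 against replicate 1 on log axes, coloured by position, with the line of equality dashed. The lower left edge follows from the threshold on the pooled signal, and the lowest point, 24.9 in replicate 2, is one of a pair of close Raf summits. That value depends on which overlapping candidate was matched.

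Ranks within each replicate do not depend on the signal scale, but they order the same signals whose sum chose the members. The rank counts are therefore a description and no check on the members. Among the 320 strongest candidates of each replicate, 255 members (79.7%) were found in replicate 1, 249 (77.8%) in replicate 2, 186 (58.1%) in both and all but 2 in at least 1. Within the 1000 strongest of each replicate, 317 of the 320 were found in both. The replicates' own summits were a median of 17 bp apart, against 35 bp in all optimal peaks, and 184 members (57.5%, against 35.3%) had them within 20 bp. The widest separation was 134 bp.

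The balance between replicates varied with base composition. The ratio of replicate 1 to replicate 2 fell as GC rose (Spearman rho -0.51 across the 320 members and -0.48 across 4264 optimal peaks, which all share the same 2 libraries). The 59 members over 2 times higher in replicate 1 had a median GC of 25.7%, the 4 over 2 times higher in replicate 2 had 47.5%, and the 257 between had 31.7%. Of the members 18.4%, and of the optimal peaks 28.4%, were over 2 times higher in replicate 1, while 1.25% and 6.66% were over 2 times higher in replicate 2. Promoter members were higher in replicate 2 in 38 of 192 cases (19.8%), intron members in 36 of 96 (37.5%) and intergenic members in 14 of 30. With 1 library on each side, the part of library preparation in these differences was not tested.

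The members at the extremes of the ratio were named by rule. The highest ratio, 13.2, was at the Raf summit with 329 in replicate 1 and 24.9 in replicate 2. The next were E(spl)m3-HLH (5.02) and PIG-F (4.03), then Dic1 and brwl. At this Raf summit the sum of the replicates was 0.579 of the pooled signal, the lowest of all members, and the neighbouring Raf summit had 433 and 379. The value of 379 came from a replicate 2 candidate 439 bp wide, whose summit also lay inside this Raf region. The value of 24.9 came from a different, weaker candidate with a nearer summit. The ratio of 13.2 thus depends on the matching rule and is no measure of a replicate difference at this region. The lowest ratios were 0.392 at tara, 0.398 at CG7737 and 0.409 at cno, followed by CG5953 and moody.

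Few member regions had the width most common in the list. Their median width was 372.5 bp (quartiles 330 and 412), and 1 of the 320 (0.313%) was 456 bp wide, the width shared by 72.0% of all optimal peaks. That width was also uncommon at a signal of 300 to 500 (10.9%), where the median was 257 bp, below that of the members. It was held by 98.4% of the optimal peaks with a signal below 150. Width grew with signal inside the set, from a median of 339 bp in the weaker 160 to 402.5 bp in the stronger 160 and 444.5 bp in the strongest 30 (Spearman rho 0.62, n = 320). Both quantities are the authors' and come from the same list. The widest regions were at CG4004 (865 bp), CG9663 (695 bp), Tsp42El (606 bp), CG32772 (599 bp) and Piezo (598 bp), and the narrowest was at lola (134 bp). The 320 summits lay in 319 distinct regions that covered 121 kb, since the HmgZ region held 2 member summits.

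Most members stood alone. Another member summit lay within 10000 bp of 51 of them (15.9%, exact 95% interval 12.1 to 20.4%), and the median distance to the nearest member was 78040 bp. Any optimal summit lay within 10000 bp of 76.9% of the members, against 72.4% of all optimal peaks. The closest pair was at Raf, followed by the pairs at HmgZ (215 bp apart), ph-p (666 bp), cbt (987 bp) and CG4004 (1037 bp).

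The 51 members with a neighbour formed 15 pairs and 6 longer runs. The longest run held 5 summits over 6960 bp of chromosome X, 1 nearest to CG2865 (607) and 4 to Raf. A run of 4 over 13399 bp of arm 2L joined CG4297 (514), the cbt summits (950 and 2524) and ush (551). The runs of 3 were jp with brwl (823, 1160 and 710, over 2536 bp), CHES-1-like (over 3565 bp), LPCAT (753) with Hex-A (over 6149 bp) and chinmo (over 10622 bp). Summits 215 bp apart or less are closer than the longer fragments of the library, which the labels give as 200 to 800 bp.

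The density of the strongest summits was highest on arm 2L and chromosome X. Arm 2L held 74 (3.15 per Mb), X 72 (3.06), 2R 55 (2.18), 3R 67 (2.09) and 3L 51 (1.81). All optimal peaks were also densest on 2L (35.5 per Mb) and X (35.8), against 31.6 to 33.0 on 2R, 3R and 3L. The members were 8.86% of the optimal peaks on 2L and 8.54% on X, against 5.50 to 6.80% on 2R, 3R and 3L. The small chromosome 4 held 1 (0.742 per Mb) of its 7 optimal peaks, the zfh2 summit, with 248 in replicate 1 and 323 in replicate 2. No arm was tested, and gene density was not taken into account.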

How the data were processed

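Peaks of tagged org-1 were analysed in 2 libraries, biological replicates of 1 group. The authors deposited lists of regions for each replicate, for the pooled replicates (30000 candidates each) and for the optimal set, with a signal value and a −log10 q value per region. Per the labels, builds were dm6 and dm3. The sources used here give no aligner, peak caller or read depth, and the signal is the authors' own. The highest −log10 q of the deposited list, 3.78, was shared by all 320 members, so q did not rank them.

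Members had a signal of at least 500. The summit was the start plus the deposited offset. Genes were the 13945 protein-coding genes of Ensembl release 115, and sequence came from RefSeq release 6. Positions were taken in the order promoter (within 500 bp), coding exon, UTR, intron and intergenic. Replicate values are those of the overlapping candidate (1 bp or more) with the nearest summit. Flanks were windows of the same width as at the summit (50 bp to either side), centred 400 bp away. The 28 words and 29 gene lists were searched by exact match. Named genes were those of the 30 strongest members, of the threshold, of up to 6 members per list and of the extremes of ratio, width and spacing. Members and lists were chosen with earlier results of these data known. No test was made, as the study has 1 group. Intervals are exact binomial (95%) and cover the counting of peaks only. The annotation and word search were checked on simulated data. Python 3.11.15, pandas 2.3.3, numpy 2.4.6 and scipy 1.17.1 were used.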

Additional observations from a re-analysis of the deposited data

How the results depend on the processing

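Of 43 alternative values of the 9 main results, 25 stayed within the interval of the main share, the spread of the replicates' own medians or 1.5 times the main count. For median GC that spread came from the values of the single replicates, 27.7% in replicate 1 and 33.2% in replicate 2. These values lie on either side of the main 30.7%, so their staying within the spread was no check. The promoter share of 60.0% was 43.4% with a window of 250 bp and 71.6% with 1000 bp, which moved the intron share to 39.4% and 20.3%, and the window of 250 bp moved the intergenic share to 15.6%. Leaving out a replicate (the 320 strongest candidates of the other one) gave promoter shares of 50.9 to 60.9%, intergenic shares of 12.5 to 13.8%, median widths of 303 to 333 bp and shares with a neighbour of 22.8 to 23.4%, against 15.9% in the pooled list. Thresholds of 400 (505 peaks) and 750 (133 peaks) gave median widths of 340 and 404 bp and 439 and 126 nearest genes, and a threshold of 400 gave a share with a neighbour of 25.3%. The gene counts follow from more or fewer peaks being counted, and for the other values the cause was not tested. The share with a neighbour within 20000 bp was 27.2%. The median GC within 100 bp of the summit was 34.8%, since the wider window takes in more flank. The dm3 list gave 319 members. Of the 28 word shares, 14 moved with windows reaching 100 bp to either side, and the member minus flank difference turned for 4.

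Read depth is unknown, both replicates are of 1 group, and no untagged sample was analysed here. Intervals therefore cover neither library nor antibody error. The nearest start need not be that of the bound gene.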
